A study of Mus musculus with 16 samples.

Results

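The lysosomal hydrolases and proton pump form a set of 39 genes of the lysosome, chosen by gene symbol from the 45777 genes of the deposited table. They hold 9 proteases, 9 glycosidases and sulfatases, 5 lipid-degrading enzymes and their helpers, 6 membrane proteins, 9 genes of the V-ATPase proton pump and the transcription factor Tfeb. All 39 were detected in every tumor, with at least 67 counts, and all 39 were tested. B16F10 cells, a melanoma line of C57BL/6 mice, had been injected subcutaneously into 6-week-old lean C57BL/6J mice or leptin-deficient ob/ob mice, which become obese, and tumors were collected either pre-therapy or after 5 intraperitoneal injections of etoposide (ETS, 20 mg per kg), 1 day after the last. ETS is a topoisomerase inhibitor that breaks DNA. The sample titles call the pre-therapy tumors controls, and their time of collection is not stated. If they were collected before the injections began, the drug and the days of growth cannot be told apart. The effect of ETS below means the difference between these groups. The 4 groups, lean and obese tumors before therapy and lean and obese tumors after ETS, held 4 libraries each, with 47199949 to 61655287 counts per tumor. The tumor cells of all groups are the same line, so that the 2 genotypes are those of the host, and ob/ob mice are obese through loss of leptin and not through diet. The libraries came from whole tumors with their host cells, and for every gene fewer cells of a type and less RNA per cell cannot be told apart.

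Lysosomes are acidic organelles that degrade proteins, glycans and lipids delivered by endocytosis and autophagy. The V-ATPase, a proton pump with a membrane sector (V0) and an ATP-hydrolysing sector (V1), acidifies the lumen, in which cathepsins, glycosidases and lipases are active. The transcription factor TFEB and its relatives TFE3 and MITF bind E-boxes with the core CACGTG, known as CLEAR elements, in the promoters of many of these genes. In melanoma cells MITF also drives pigmentation, and melanosomes, the pigment organelles, are relatives of lysosomes. Macrophages are likewise rich in lysosomes.

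The E-box core CACGTG and its extended form TCACGTGA were searched in the RefSeq promoter windows of build GRCm38.p6, which run from 250 bases before to 50 after a gene's start. Both words read the same on the 2 strands, and each match of the longer word holds a match of the shorter. Of the 39 members, 33 had a window, and 12 of the 33 (36.4%) held CACGTG, against 8.09% of all 27025 genes with a window and 7.15% of the 32851 windows. The longer TCACGTGA was found in 6 of the 33 (18.2%), namely Ctsa, Ctsd, Mcoln1, Atp6v0d1, Atp6v1a and Gla, against 1.12% of all genes and 0.974% of the windows. The stretches before the start of 5 of these members are shown 5′ to 3′ on the gene's strand with each CACGTG in capitals, because Ctsd, Ctsf and Gla are among the members whose values are given tumor by tumor and Mcoln1 and Lamp1 are membrane proteins with repeated E-boxes. The stretches are chr7:142387828-142387947 (minus strand) for Ctsd, chr8:3500419-3500518 (plus) for Mcoln1, chr8:13159081-13159160 (plus) for Lamp1, chr19:4855065-4855164 (plus) for Ctsf and chrX:134601166-134601245 (minus) for Gla.
Ctsd: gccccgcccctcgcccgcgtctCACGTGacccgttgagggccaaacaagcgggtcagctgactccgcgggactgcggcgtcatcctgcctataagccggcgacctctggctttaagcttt
Mcoln1: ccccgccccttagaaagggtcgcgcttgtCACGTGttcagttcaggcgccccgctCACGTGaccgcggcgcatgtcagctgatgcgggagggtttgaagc
Lamp1: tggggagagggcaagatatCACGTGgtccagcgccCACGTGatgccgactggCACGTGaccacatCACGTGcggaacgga
Ctsf: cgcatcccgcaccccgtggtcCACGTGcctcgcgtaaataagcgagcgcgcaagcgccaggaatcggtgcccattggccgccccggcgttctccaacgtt
Gla: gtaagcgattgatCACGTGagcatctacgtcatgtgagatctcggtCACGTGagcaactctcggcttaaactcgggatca
The stretch of Lamp1 holds 4 copies of the word, those of Mcoln1 and Gla 2 each, and those of Ctsd and Ctsf 1 each. The word is a match of letters and not a measured binding site.

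The levels of the members spanned more than 2 orders of magnitude. On the deposited TPM scale, which is per length of transcript, Cd63, a tetraspanin of late endosomes, had the highest mean over the 16 tumors (1650 TPM), followed by Ctsd, the main aspartic protease of the lysosome (1560 TPM), and Atp6v0c, the proteolipid ring subunit of the V0 sector (1180 TPM). The lowest were Ctsf (6.58 TPM), Ctsk (14.8 TPM), Gla (18.1 TPM) and Sgsh (18.6 TPM). Summed over the 39 members, the share of all TPM was 1.10% to 1.24% in lean tumors before therapy, 1.11% to 1.28% in lean tumors after ETS, 0.737% to 0.867% in obese tumors before therapy and 1.09% to 1.36% in obese tumors after ETS. On this summed level the obese tumors before therapy therefore stood apart, with all 4 below every other tumor.

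The effect of ETS was compared within each host by edgeR's quasi-likelihood test on all 16 libraries, with p-values adjusted over 16209 genes by the Benjamini-Hochberg method and a gene called at an adjusted p under 0.05. The main measure is the log2 fold change of TMM-scaled counts, given with its standard error (SE), and levels of tumors are given as CPM, the usual count scaled to a common library size, with the same TMM factors. In lean tumors 16 of the 39 members rose and 2, Ctsh and Psap, fell, with a median log2 fold change of 0.37, where 21% of all tested genes were called higher, 22.8% lower and 43.8% in either direction, with a median of -0.01. In obese tumors 31 members rose and 0 fell, with a median of 0.71, where 21.2% of all genes were called higher, 19% lower and 40.2% in either direction, with a median of 0.01. By edgeR's unadjusted p under 0.05, by DESeq2 and by the exact test the number of members lower in obese tumors was also 0. Counted without a test, 22 members had all 4 ETS tumors above all 4 pre-therapy tumors in lean mice, where 20.8% of all genes did so, and 22 in obese mice, where 16.4% did so. The reverse, all ETS tumors below, held for 0 members in either host, against 20.3% of genes in lean and 17.7% in obese mice.

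**Figure D1:**
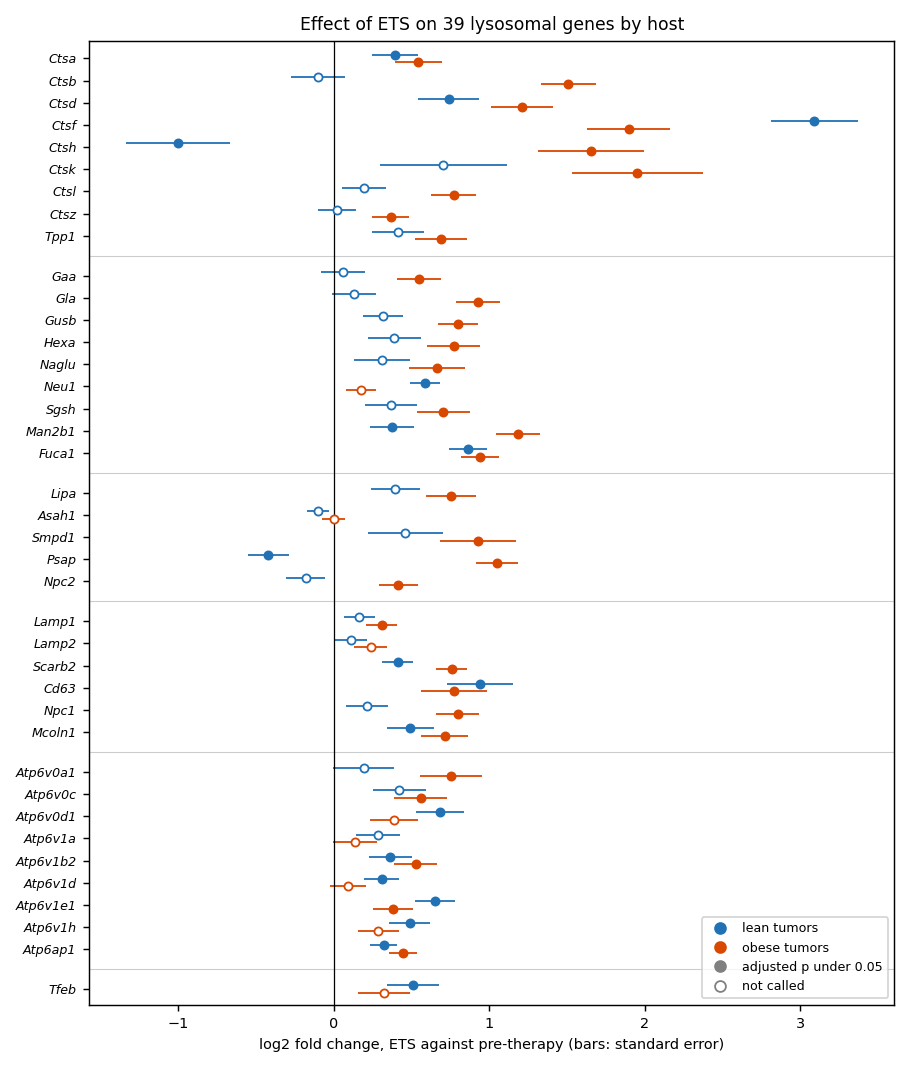
Log2 fold change of ETS against pre-therapy tumors for the 39 members, with lean tumors in blue and obese tumors in orange, bars for the standard error and filled points for an adjusted p under 0.05. From top to bottom the blocks are proteases, glycosidases and sulfatases, lipid-degrading enzymes and helpers, membrane proteins, V-ATPase and Tfeb; in obese tumors all 9 proteases are called higher, whereas both hosts overlap in the V-ATPase block.

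With DESeq2's size factors in place of TMM, 18 members were higher and 2 lower in lean mice. Limma on log2(TPM + 1) changes the unit, the scaling and the test together, and by it the log2 fold changes over all genes moved by -0.35 (median) in lean tumors and by -0.09 in obese ones. By this fit 7 members were higher and 8 lower after ETS in lean mice, where 8.33% of all genes were called higher and 44.9% lower. In obese mice 32 members were higher and 0 lower, where 15.9% of all genes were called higher and 20.6% lower. Of the 39 members, 32 still lay above the median of all genes there in lean tumors and 38 did in obese tumors. The mitochondrially encoded COX1 was the gene with the most counts in every tumor, with 1.48% to 2.36% of counts before therapy, 3.94% to 6.24% in lean tumors after ETS and 1.85% to 4.59% in obese tumors after ETS.

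Proteases had the largest median rise of the roles in obese tumors. There all 9 rose, with a median log2 fold change of 1.21, and in lean tumors 3 of 9 rose (Ctsa, Ctsd and Ctsf) while Ctsh fell. On the TPM scale the 9 calls in obese tumors were kept in number, and in lean tumors 2 rose and 3 were lower. That fit called 8.33% of all genes higher and 44.9% lower in lean mice.
Ctsb, a cysteine protease abundant in many cells (gene ID 13030, chromosome 14, 63122462 to 63145923), was at 1440, 1110, 797 and 1150 CPM in lean tumors before therapy and at 1290, 893, 1030 and 977 after ETS. In obese tumors Ctsb was at 487, 636, 488 and 469 CPM before therapy and at 1710, 1430, 1210 and 1580 after ETS. The lean groups overlapped fully, and every obese tumor after ETS lay above every obese tumor before therapy, which were the lowest 4 of all 16. The log2 fold change was -0.10 (SE 0.17, adjusted p = 0.66, edgeR) in lean tumors and 1.51 (SE 0.18, adjusted p = 3.89e-05) in obese tumors.
Ctsh, an aminopeptidase as well as an endopeptidase (gene ID 13036, chromosome 9, 90054267 to 90076095), was at 67.6, 72.5, 24.3 and 49.4 CPM in lean tumors before therapy and at 33.5, 37.6, 18.7 and 17.2 after ETS. In obese tumors Ctsh was at 16.3, 20.5, 20.5 and 19 CPM before therapy and at 53.3, 41.9, 47.7 and 97.2 after ETS. Lean tumor 3 before therapy lay within the range of the lean tumors after ETS, and the obese groups did not overlap. Ctsh fell by 1.0 on the log2 scale in lean tumors (SE 0.34, adjusted p = 0.0253, edgeR) and rose by 1.66 in obese tumors (SE 0.34, adjusted p = 0.00176). The fall was not called without lean pre-therapy tumor 1 or 2 or lean ETS tumor 3 or 4, with log2 fold changes of -0.82 to -0.87 and adjusted p of 0.0628 to 0.0816.

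Ctsf, a cysteine protease of the papain family (gene ID 56464, chromosome 19, 4855165 to 4860918), had the largest rise of the members in lean tumors. It was at 1.86, 1.69, 1.05 and 1.06 CPM in lean tumors before therapy and at 11.1, 12.8, 9.77 and 14.7 after ETS. Obese tumors had Ctsf at 4.24, 3.79, 2.06 and 2.72 CPM before therapy and at 15.3, 8.69, 10.4 and 13.2 after ETS. The groups did not overlap within either host, and all 4 obese tumors before therapy lay above all 4 lean ones, while the ETS tumors of the 2 hosts overlapped. The log2 fold change was 3.09 in lean tumors (SE 0.28, adjusted p = 3.06e-06, edgeR) and 1.90 in obese tumors (SE 0.26, adjusted p = 0.000118).
Ctsd (gene ID 13033, chromosome 7, 142375910 to 142387827) was at 1740, 1140, 988 and 1420 CPM in lean tumors before therapy and at 2630, 2340, 1940 and 1930 after ETS. Obese tumors had Ctsd at 872, 975, 902 and 851 CPM before therapy and at 2740, 2390, 1600 and 1610 after ETS. In both hosts every ETS tumor lay above every pre-therapy tumor. Ctsd rose by 0.74 on the log2 scale in lean tumors (SE 0.20, adjusted p = 0.0075, edgeR) and by 1.21 in obese tumors (SE 0.20, adjusted p = 0.000367).
Ctsk, the collagen-degrading cathepsin known from osteoclasts (gene ID 13038, chromosome 3, 95499210 to 95509387), was at 17.8, 12.2, 5.24 and 6.94 CPM in lean tumors before therapy and at 11.1, 17.5, 20 and 20.1 after ETS. Obese tumors had Ctsk at 4.18, 8.42, 3.65 and 3.18 CPM before therapy and at 23.2, 15.1, 9.32 and 27.5 after ETS. The lean groups overlapped and the obese groups did not. Ctsk had a log2 fold change of 0.71 in lean tumors (SE 0.41, adjusted p = 0.17, edgeR) and 1.95 in obese tumors (SE 0.42, adjusted p = 0.00236). Without lean pre-therapy tumor 1 the lean value was 1.08 with an adjusted p of 0.0463.

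Among the 9 glycosidases and sulfatases, which remove sugars and sulfate groups from glycans, 3 rose in lean tumors (Neu1, Man2b1 and Fuca1) and 8 rose in obese tumors, all but Neu1. In lean tumors 9 of 9 log2 fold changes lay above 0 by edgeR, and 3 of 9 by limma on log2(TPM + 1). The median of all genes in that limma fit was -0.28 in lean tumors.
Man2b1, the lysosomal alpha-mannosidase (gene ID 17159, chromosome 8, 85082730 to 85098739), was at 114, 120, 120 and 150 CPM in lean tumors before therapy and at 175, 157, 151 and 171 after ETS. Obese tumors had Man2b1 at 88.6, 90.4, 61.2 and 72.7 CPM before therapy and at 226, 176, 162 and 149 after ETS. The groups did not overlap within either host, although lean pre-therapy tumor 4 came close to the lean ETS tumors. Man2b1 had a log2 fold change of 0.38 in lean tumors (SE 0.14, adjusted p = 0.0419, edgeR) and 1.19 in obese tumors (SE 0.14, adjusted p = 4.55e-05). The lean rise was not called on the TPM scale, where it was -0.01, nor without lean pre-therapy tumor 1, 2 or 3 or lean ETS tumor 1, 2 or 4, with values of 0.32 to 0.39 and adjusted p of 0.0622 to 0.114.
Gla, the alpha-galactosidase whose loss causes Fabry disease (gene ID 11605, chromosome X, 134588169 to 134601005), was at 35.9, 29.4, 24.3 and 30.1 CPM in lean tumors before therapy and at 34.3, 37.7, 28.9 and 30.4 after ETS. Obese tumors had Gla at 21.4, 17, 17.5 and 18.9 CPM before therapy and at 40.9, 40.8, 28.7 and 32.2 after ETS. The lean groups overlapped and the obese groups did not. Gla had a log2 fold change of 0.13 in lean tumors (SE 0.14, adjusted p = 0.459, edgeR) and 0.93 in obese tumors (SE 0.14, adjusted p = 0.000199), and on the TPM scale the lean value turned to -0.23.
Hexa, the alpha subunit of the hexosaminidase that degrades gangliosides (gene ID 15211, chromosome 9, 59539540 to 59565109), was at 396, 307, 309 and 348 CPM in lean tumors before therapy and at 418, 448, 409 and 508 after ETS. Obese tumors had Hexa at 202, 182, 181 and 178 CPM before therapy and at 446, 351, 240 and 233 after ETS. The groups did not overlap within either host. Hexa had a log2 fold change of 0.39 in lean tumors (SE 0.17, adjusted p = 0.0741, edgeR) and 0.77 in obese tumors (SE 0.17, adjusted p = 0.00271). The lean value was called by DESeq2 (adjusted p = 0.0492), with only the lean tumors in the fit (0.0172), without lean pre-therapy tumor 1 (0.0481) and without obese ETS tumor 1 (0.0332).
Fuca1, the alpha-fucosidase, rose in both hosts, by 0.86 in lean (SE 0.12) and 0.94 in obese tumors (SE 0.12), with a difference of -0.08 (SE 0.17, adjusted p = 0.807, edgeR).

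Of the 5 lipid-degrading enzymes and helpers, 0 rose and 1, Psap, fell in lean tumors, while 4 rose in obese tumors. The number that rose in lean tumors was 1 at an unadjusted p under 0.05, by DESeq2 and by the exact test. On the TPM scale 3 of the 5 fell, in a fit that called 44.9% of all genes lower in lean mice. Asah1, the acid ceramidase, was the exception in obese tumors, at 124 to 134 CPM before therapy and 120 to 137 after ETS.
Psap encodes prosaposin, the precursor of the saposins that present sphingolipids to their hydrolases (gene ID 19156, chromosome 10, 60277628 to 60302600). It was at 1230, 1230, 1010 and 1480 CPM in lean tumors before therapy and at 1010, 725, 972 and 998 after ETS. Obese tumors had Psap at 608, 655, 612 and 676 CPM before therapy and at 1530, 1290, 1160 and 1310 after ETS. In lean tumors the groups met at about 1010 CPM, whereas in obese tumors the lowest ETS tumor was well above the highest pre-therapy tumor. Psap fell by 0.42 on the log2 scale in lean tumors (SE 0.13, adjusted p = 0.019, edgeR) and rose by 1.05 in obese tumors (SE 0.13, adjusted p = 6.52e-05). The fall was not called without lean pre-therapy tumor 4 (-0.32, adjusted p = 0.0723) or lean ETS tumor 2 (-0.33, adjusted p = 0.0535).
Npc2, which hands cholesterol out of the lysosome together with Npc1 (gene ID 67963, chromosome 12, 84754559 to 84773112), was at 375, 333, 287 and 333 CPM in lean tumors before therapy and at 310, 301, 279 and 282 after ETS. Obese tumors had Npc2 at 258, 231, 203 and 222 CPM before therapy and at 362, 343, 233 and 281 after ETS. The groups overlapped in both hosts. Npc2 had a log2 fold change of -0.18 in lean tumors (SE 0.13, adjusted p = 0.264, edgeR) and 0.42 in obese tumors (SE 0.13, adjusted p = 0.0172). The obese value was not called without obese pre-therapy tumor 3, obese ETS tumor 1 or obese ETS tumor 2, with values of 0.34 to 0.36 and adjusted p of 0.0537 to 0.0571.

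The 6 membrane proteins rose in 3 cases in lean tumors (Scarb2, Cd63 and Mcoln1) and in 5 in obese tumors, all but Lamp2, which had a log2 fold change of 0.24 (SE 0.11, adjusted p = 0.0818, edgeR). On the TPM scale 1 was higher and 1 lower in lean mice, and 5 were higher in obese mice. That fit called 8.33% of all genes higher and 44.9% lower in lean mice, and 15.9% higher in obese mice. Scarb2, the receptor that carries glucocerebrosidase to the lysosome, was at 70.7 to 76.9 CPM in lean tumors before therapy and at 88.9 to 110 after ETS, and in obese tumors at 65.6 to 84.7 and at 113 to 149. Cd63 rose by 0.94 in lean tumors (SE 0.21) and by 0.78 in obese tumors (SE 0.21), where ETS tumors 1 and 2 were at 1220 and 1120 CPM and tumors 3 and 4 at 610 and 573.
Lamp1, the abundant glycoprotein of the lysosomal membrane (gene ID 16783, chromosome 8, 13159161 to 13175338), was at 710, 600, 564 and 658 CPM in lean tumors before therapy and at 758, 659, 712 and 712 after ETS. Obese tumors had Lamp1 at 605, 646, 584 and 536 CPM before therapy and at 808, 781, 704 and 646 after ETS. Lamp1 thus varied little, with overlap in lean tumors and with the lowest obese ETS tumor at the level of the highest pre-therapy tumor. Lamp1 had a log2 fold change of 0.17 in lean tumors (SE 0.10, adjusted p = 0.187, edgeR) and 0.31 in obese tumors (SE 0.10, adjusted p = 0.0226). The obese value was not called without obese pre-therapy tumor 3 or 4 or obese ETS tumor 1 or 2, with adjusted p of 0.0521 to 0.0753.

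The 9 genes of the V-ATPase all had log2 fold changes above 0 in both hosts, at medians of 0.36 in lean and 0.39 in obese tumors. In lean tumors 6 rose (Atp6v0d1, Atp6v1b2, Atp6v1d, Atp6v1e1, Atp6v1h and the accessory subunit Atp6ap1) and in obese tumors 5 rose (Atp6v0a1, Atp6v0c, Atp6v1b2, Atp6v1e1 and Atp6ap1). On the TPM scale 2 rose and 4 of 9 were above 0 in lean tumors, all 9 lying above the median of all genes there (-0.28), and 6 rose in obese tumors. The TPM fit called 8.33% of all genes higher in lean mice and 15.9% in obese mice. The largest rise was 0.68 in lean tumors, for Atp6v0d1 (SE 0.15, adjusted p = 0.0028, edgeR), and 0.75 in obese tumors, for Atp6v0a1 (SE 0.20, adjusted p = 0.00808). Without lean ETS tumor 1 the number that rose in lean tumors was 3, and without obese pre-therapy tumor 4 or obese ETS tumor 2 the number in obese tumors was 3.
Atp6v1h, the regulatory H subunit of the V1 sector (gene ID 108664, chromosome 1, 5082978 to 5163213), was at 105, 73.8, 86.6 and 74 CPM in lean tumors before therapy and at 116, 127, 112 and 122 after ETS. Obese tumors had Atp6v1h at 89.2, 78.8, 81 and 83.4 CPM before therapy and at 126, 111, 82.2 and 87.3 after ETS. The lean groups did not overlap, and in obese tumors 2 of the 4 ETS tumors lay within the pre-therapy range. The log2 fold change was 0.49 in lean tumors (SE 0.13, adjusted p = 0.00771, edgeR) and 0.29 in obese tumors (SE 0.13, adjusted p = 0.0928). It was called in obese tumors without ETS tumor 3 (0.38, adjusted p = 0.0325) or ETS tumor 4 (0.36, adjusted p = 0.0435), and in lean tumors it was not called on the TPM scale (0.15, adjusted p = 0.292).

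Tfeb (gene ID 21425, chromosome 17, 47737037 to 47792416) was at 45.9, 38.3, 33.2 and 41.7 CPM in lean tumors before therapy and at 57, 68.5, 52.3 and 48.5 after ETS. Obese tumors had Tfeb at 39.5, 39, 42.8 and 43.9 CPM before therapy and at 64, 60.9, 48.4 and 33.6 after ETS. All lean ETS tumors lay above the lean tumors before therapy, and obese ETS tumor 4 was below every obese tumor before therapy. Tfeb rose by 0.51 on the log2 scale in lean tumors (SE 0.17, adjusted p = 0.0229, edgeR) and had a log2 fold change of 0.32 in obese tumors (SE 0.17, adjusted p = 0.135). The lean rise was not called on the TPM scale (0.13, adjusted p = 0.386) nor without lean pre-therapy tumor 2 or 3 or lean ETS tumor 2 (adjusted p of 0.054 to 0.0813), and the obese value was called without obese ETS tumor 4 (0.49, adjusted p = 0.00707). TFEB is regulated mainly through its phosphorylation and entry into the nucleus, which RNA does not show.

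The difference between the ETS effects, lean minus obese, was tested as an interaction in the same fit. Of the 39 members, 6 had a lower effect in lean tumors (Ctsb, Ctsh, Gla, Man2b1, Psap and Npc2) and 1 a higher effect (Ctsf), with a median of -0.34 over the members, where 10.1% of all genes were called lower, 6.35% higher and 16.4% in either direction, with a median of 0.05. The difference was -2.66 for Ctsh (SE 0.48, adjusted p = 0.00159, edgeR). For Ctsb it was -1.61 (SE 0.25, adjusted p = 0.00047), and for Psap -1.47 (SE 0.19, adjusted p = 0.000121). These 3 did not rise in lean tumors, and each rose at least 2-fold in obese tumors. Man2b1, Gla and Npc2 differed by less, by -0.81 (SE 0.20, adjusted p = 0.0123), -0.80 (SE 0.20, adjusted p = 0.0124) and -0.60 (SE 0.18, adjusted p = 0.0334). Ctsf had a difference of 1.19 (SE 0.37, adjusted p = 0.0371), the larger rise being that in lean tumors. On the TPM scale 19 members were lower and 0 higher, where 13.8% of all genes were called lower and 1.41% higher, with a median of -0.16. Ctsf was not called there (0.60, adjusted p = 0.197, limma). For the 9 V-ATPase genes the differences lay between -0.56 (Atp6v0a1, SE 0.28) and 0.30 (Atp6v0d1, SE 0.22), and 0 were called by edgeR's quasi-likelihood test, 0 at an unadjusted p under 0.05, 0 by DESeq2 and 2 on the TPM scale. With standard errors of this size, the calls do not show that the pump genes responded alike. For Ctsk, the difference was -1.25 (SE 0.58, adjusted p = 0.16).
The call of Ctsf was lost without any of lean pre-therapy tumors 3 and 4, lean ETS tumors 1, 2 and 4, obese pre-therapy tumors 1 and 2 and obese ETS tumors 2 and 3, with values of 1.03 to 1.21 and adjusted p of 0.0534 to 0.0801. That of Npc2 was lost without any of lean pre-therapy tumors 1, 2 and 4, lean ETS tumors 3 and 4, obese pre-therapy tumors 3 and 4 and obese ETS tumor 2, with values of -0.53 to -0.59 and adjusted p of 0.0546 to 0.0707. Without obese ETS tumor 4 the number of members lower was 10.

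**Figure D2:**
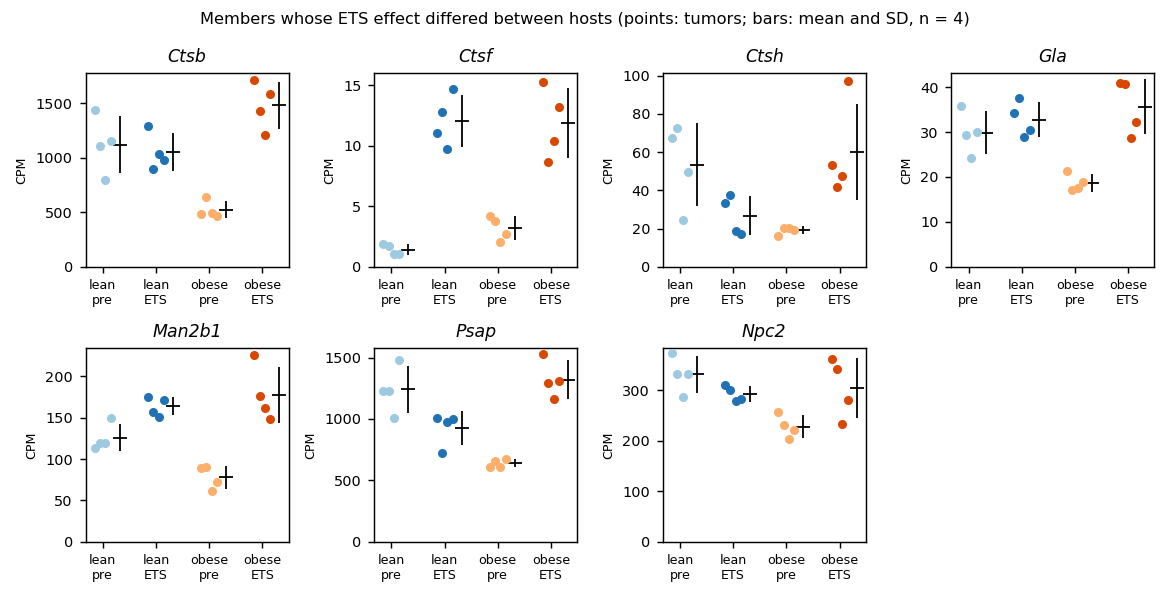
CPM (TMM-scaled, linear axis from 0) of the 7 members whose ETS effect differed between the hosts, with a point for each tumor and the mean and SD of the 4 tumors of a group beside the points. In 6 of the 7 panels the obese tumors before therapy have the lowest mean, and Ctsf is lowest in lean tumors before therapy.

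Before therapy, 14 of the 39 members were lower and 1, Ctsf, higher in obese than in lean tumors, with a median log2 fold change of -0.35, where 12.9% of all genes were called lower, 13.5% higher and 26.4% in either direction, with a median of 0.02. All 4 obese tumors lay below all 4 lean tumors for 19 members, where 14.4% of genes did so, and above them for 1 member, where 16% did so. The members lower in obese tumors were 5 of 9 proteases, 6 of 9 glycosidases and sulfatases and 3 of 5 lipid-degrading enzymes and helpers. Ctsh (-1.49, SE 0.34), Ctsb (-1.11, SE 0.18), Psap (-0.96, SE 0.13) and Hexa (-0.87, SE 0.17) had the largest falls among them, with adjusted p of 0.00478, 0.000315, 0.000115 and 0.00165 by edgeR. By edgeR's quasi-likelihood test 0 of the 6 membrane proteins and 0 of the 9 V-ATPase genes were lower, against 3 and 1 at an unadjusted p under 0.05, 3 and 0 by DESeq2, 1 and 0 by the exact test and 3 and 3 on the TPM scale. The number of members lower was 9 without lean pre-therapy tumor 4 or obese pre-therapy tumor 3. It was 23 on the TPM scale, where 17.1% of all genes were called lower and 6.95% higher.

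After ETS, 3 members were higher in obese than in lean tumors and 0 lower, with a median of -0.02, where 3.28% of all genes were called higher, 2.3% lower and 5.58% in either direction. The 3 were Ctsl (0.61, SE 0.14, adjusted p = 0.0288, edgeR), Scarb2 (0.42, SE 0.10, adjusted p = 0.0297) and Psap (0.51, SE 0.13, adjusted p = 0.0404). Ctsl, a broad cysteine endopeptidase, was at 186 to 189 CPM in lean tumors after ETS and at 211 to 352 in obese tumors after ETS. The number lower was 3 at an unadjusted p under 0.05, 1 by DESeq2 and 0 by the exact test. The number higher was 0 without lean ETS tumor 2, 3 or 4 or obese ETS tumor 4, and 1 without lean ETS tumor 1. The comparisons before therapy and after ETS share their tumors with the ETS effects and are not independent of them.

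**Figure D3:**
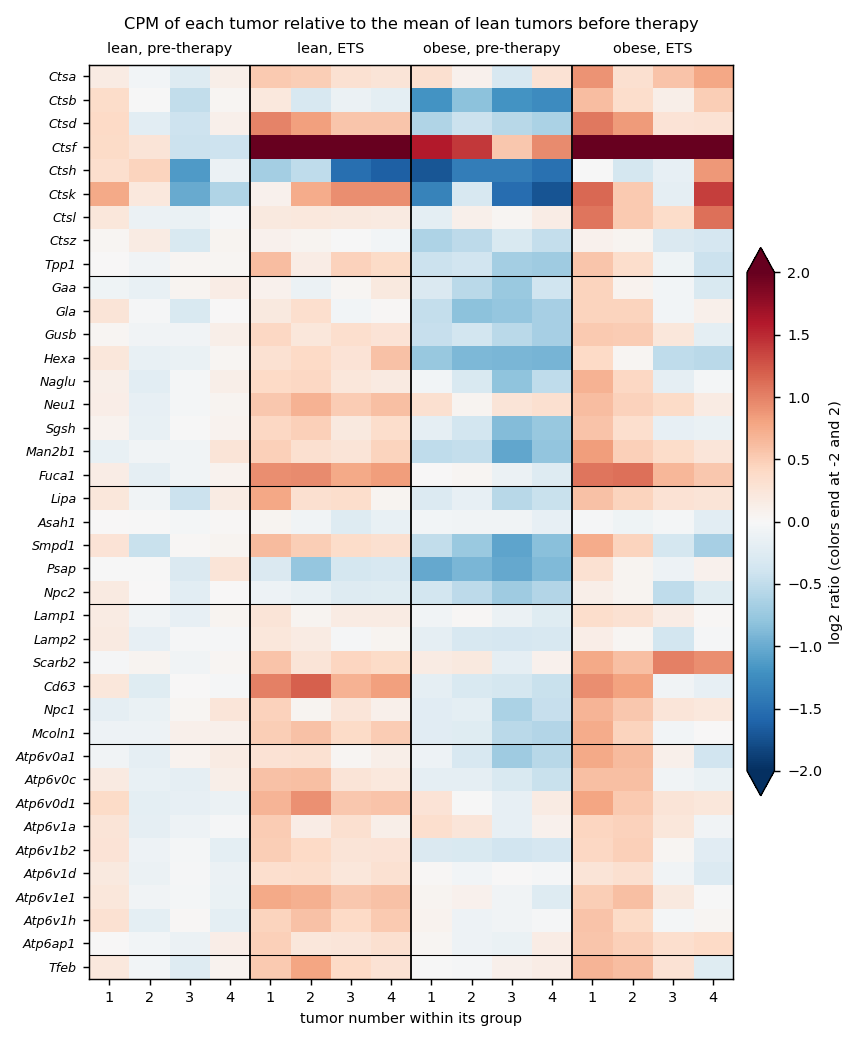
Heat map of the 39 members in the 16 tumors, as the log2 ratio of a tumor's CPM to the mean of the lean tumors before therapy, with colors ending at -2 and 2 and lines between groups and roles. The obese tumors before therapy are blue for most hydrolases, and obese ETS tumors 1 and 2 are redder than 3 and 4 over most rows.

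The obese tumors after ETS were not uniform. For 30 of the 39 members, ETS tumors 1 and 2 both lay above tumors 3 and 4, and for 1, Scarb2, below. Of all tested genes 4334 (26.7%) lay above in the same way and 3774 below. The 8 members in neither order were Ctsa, Ctsb, Ctsf, Ctsh, Ctsk, Ctsl, Asah1 and Psap. Without tumors 1 and 2, a choice made after seeing the data, 18 members rose in obese tumors, where 13.8% of all genes were called higher, among them 7 of 9 proteases, 5 of 9 glycosidases and sulfatases, 2 of 5 lipid-degrading enzymes and helpers, 3 of 6 membrane proteins and 1 of 9 V-ATPase genes, and Npc2 (0.19, adjusted p = 0.283) and Lamp1 (0.21, adjusted p = 0.214) were not called. Without tumors 3 and 4, 37 members rose, where 21.8% of all genes were called higher, including 8 of 9 V-ATPase genes and Tfeb (0.59, adjusted p = 0.00295). The summed CPM of the 8 melanocyte markers (Mlana, Pmel, Tyr, Tyrp1, Dct, Mitf, Sox10 and Slc45a2) was 26600 and 24200 in tumors 1 and 2 and 14600 and 11300 in tumors 3 and 4.

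Markers of other cells moved with the groups. The counts called below are to be read beside the shares of all genes. The fit called 21% higher and 22.8% lower in lean mice, and 21.2% higher and 19% lower in obese mice. Before therapy it called 12.9% of genes lower and 13.5% higher in obese tumors. The summed CPM of 12 macrophage markers was 457 to 1420 in lean tumors before therapy, 56.3 to 440 in lean tumors after ETS, 46.3 to 269 in obese tumors before therapy and 370 to 1130 in obese tumors after ETS. Of the 11 that were tested, after ETS 9 fell in lean mice and 9 rose in obese mice, 10 were lower in obese tumors before therapy, and none of the 12 was at 0 in every tumor. The number that fell in lean tumors was 5 without lean pre-therapy tumor 1 or 2 or lean ETS tumor 3 or 4. The 7 fibroblast markers summed to 527 to 2210 CPM, 95 to 601, 90.7 to 601 and 604 to 5680 in the same order of groups, with obese ETS tumor 4 the highest, and 4 of them fell in lean mice while 7 rose in obese mice. The fall of fibroblast markers in lean tumors was called for 0 or 1 without any of lean pre-therapy tumors 1 and 2 and lean ETS tumors 1, 3 and 4. The 5 endothelial markers summed to 96.3 to 125, 65.1 to 91.8, 45.1 to 81.8 and 80.6 to 216 CPM. The 8 melanocyte markers summed to 19000 to 24100, 24200 to 28000, 11600 to 15900 and 11300 to 26600 CPM, with Tyrp1, Pmel and Dct the most abundant. After ETS 2 of the 8 rose in lean mice, near the share of all genes, and 3 in obese mice. In obese tumors before therapy 4 were lower (edgeR). In that comparison before therapy Mitf (0.17) and Sox10 (0.27) had log2 fold changes above 0 and were not called. The 6 T cell markers summed to 17.9 to 33.6 CPM in lean tumors before therapy and to at most 1.62 CPM elsewhere, and the 5 neutrophil markers to at most 30.1 CPM. Of these T cell and neutrophil markers 0 were tested, since each had a 0 in some tumor. The 5 adipocyte markers, of which Fabp4 was tested, summed to 7.66 to 27.6 CPM in lean tumors and 13.5 to 242 CPM in obese tumors. The part of these cells in the changes of the members was not tested.

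**Figure D4:**
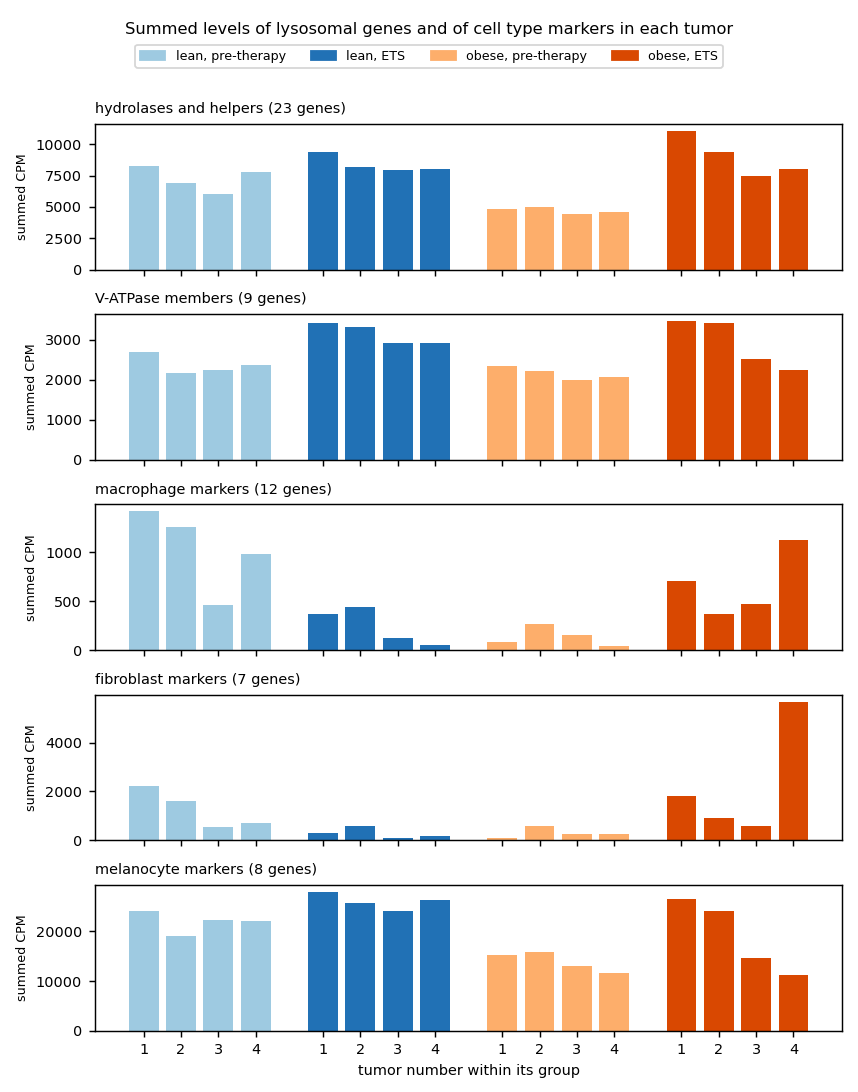
Summed CPM in each of the 16 tumors (linear axes from 0) of the 23 hydrolases and helpers, the 9 V-ATPase members and the macrophage, fibroblast and melanocyte markers, colored by group. The hydrolases and the macrophage markers are both low in obese tumors before therapy and higher after ETS there. In lean tumors the macrophage markers are at 457 to 1420 CPM before therapy and at 56.3 to 440 after ETS, which overlaps the 370 to 1130 of obese tumors after ETS. The hydrolases are at 6050 to 8250 CPM in lean tumors before therapy and at 7970 to 9390 after ETS. The melanocyte markers are at 11600 to 15900 CPM in obese tumors before therapy and at 24200 to 28000 in lean tumors after ETS. They are at 19000 to 24100 CPM in lean tumors before therapy and at 11300 to 26600 in obese tumors after ETS. The part of these cells in the hydrolase levels was not tested.

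Other genes of the pathway, not among the members, were counted in the same fit. Of all genes it called 21% higher and 22.8% lower in lean mice, and 21.2% and 19% in obese mice. In the difference it called 6.35% higher and 10.1% lower. Limma on TPM called 8.33% higher and 44.9% lower in lean mice, and 15.9% and 20.6% in obese mice. The counts of each list are to be read beside these shares. Of 26 other lysosomal enzymes and activators, in lean mice 6 rose and 7 fell, in obese mice 19 rose and 1 fell, and 12 had a lower effect in lean than in obese tumors. On the TPM scale the counts were 0 higher and 15 lower in lean mice, and 15 higher and 1 lower in obese mice, in a fit that called 44.9% of all genes lower in lean mice. Ctss, a cathepsin known from antigen-presenting cells, fell by 3.40 in lean tumors (SE 0.71, adjusted p = 0.00163, edgeR) and rose by 2.42 in obese tumors (SE 0.69, adjusted p = 0.0124). Ctsc, the dipeptidyl peptidase that activates granule proteases, fell by 1.58 in lean tumors (SE 0.20), and Lgmn, the asparaginyl endopeptidase legumain, rose by 1.15 in obese tumors (SE 0.22, adjusted p = 0.00113). Acp5, a tartrate-resistant acid phosphatase known from osteoclasts and macrophages, fell by 1.31 in lean tumors (SE 0.51, adjusted p = 0.047, edgeR). It rose by 1.56 in obese tumors (SE 0.52, adjusted p = 0.0264).
Of 16 other V-ATPase subunits 13 were tested, of which 7 rose and 1 fell in lean mice, and 9 rose and 0 fell in obese mice (edgeR), with 1 lower at an unadjusted p under 0.05 and 0 by DESeq2. On the TPM scale the counts were 5 higher and 3 lower in lean mice, and 7 higher and 1 lower in obese mice. The largest rise in both hosts was that of Atp6v0d2, the d subunit known from osteoclasts and macrophages, with 1.93 in lean (SE 0.41, adjusted p = 0.00188) and 2.47 in obese tumors (SE 0.44, adjusted p = 0.000595). Tcirg1, the a3 subunit, was the subunit called in the difference (-1.21, SE 0.20, adjusted p = 0.000685).
Of 15 other membrane proteins and sorting receptors, in lean mice 4 rose and 2 fell, and in obese mice 8 rose and 0 fell by edgeR, with 0 lower at an unadjusted p under 0.05 and 0 by DESeq2. Counted by limma on TPM, they were 2 higher and 5 lower in lean mice, and 4 higher and 0 lower in obese mice. Cln3, a lysosomal membrane protein lost in a form of Batten disease, rose by 1.11 in obese tumors (SE 0.19, adjusted p = 0.000438, edgeR), with a difference between hosts of -0.99 (SE 0.26, adjusted p = 0.0173). The number that rose in obese tumors was 5 without obese pre-therapy tumor 3 or 4 or obese ETS tumor 1 or 2.

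A list of 19 genes held the MiT/TFE factors and their control by mTORC1, the kinase complex that retains TFEB in the cytosol. By edgeR 7 rose and 3 fell in lean mice, where 21% of all genes were called higher and 22.8% lower. In obese mice 2 rose and 2 fell, where 21.2% were called higher and 19% lower. On the TPM scale 1 rose and 7 fell in lean mice, where 8.33% of all genes were called higher and 44.9% lower. In obese mice 1 rose and 3 fell on that scale, where 15.9% were called higher and 20.6% lower. Rragd, a Rag GTPase that is itself a target of the MiT/TFE factors, rose by 0.64 in lean tumors (SE 0.13, adjusted p = 0.00155, edgeR) and, before therapy, stood 1.08 higher in obese tumors (SE 0.13, adjusted p = 4.51e-05). Fnip2, a folliculin-interacting protein, fell by 0.91 in lean tumors (SE 0.16, adjusted p = 0.000496). Tfec, a member of the MiT/TFE family, rose by 2.20 in obese tumors (SE 0.63, adjusted p = 0.013). The number that rose in lean tumors was 4 without lean pre-therapy tumor 3 or 4 or lean ETS tumor 2.
Of 18 autophagy genes, in lean mice 10 rose and 1 fell, and in obese mice 7 rose and 0 fell by edgeR, with 1 lower at an unadjusted p under 0.05 and 0 by DESeq2. By limma on TPM 4 were higher and 3 lower in lean mice, and 6 higher and 1 lower in obese mice. Map1lc3a, which encodes an LC3 protein of the autophagosome membrane, rose by 1.38 in lean tumors (SE 0.20, adjusted p = 0.000133, edgeR) and by 0.82 in obese tumors (SE 0.20, adjusted p = 0.00526). Of 4 cystatins, secreted or cytosolic inhibitors of cysteine cathepsins, 3 were tested, and 2 rose in lean and 3 in obese tumors, against 1 and 3 on the TPM scale. Cst6 rose by 2.20 in lean tumors (SE 0.19, adjusted p = 2.13e-06, edgeR) and by 1.19 in obese tumors (SE 0.19, adjusted p = 0.000253).

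The members were also counted by their promoters, 12 with CACGTG in their window and 21 without it, and the difference between these groups was not tested. Of those with it, 5 rose in lean and 10 in obese tumors, with medians of 0.34 and 0.69 on the log2 scale. Of those without it, 9 rose in lean and 17 in obese tumors, with medians of 0.40 and 0.75. Ctsd and Gla, whose E-boxes are printed above, both rose in obese tumors, and Gla was not called in lean tumors.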

How the data were processed

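The authors aligned reads of stranded poly(A) libraries to mm10 with HISAT2 2.1.0 and quantified genes with StringTie 2.1.3b. The counts they deposited are whole and unnormalized, and the TPM values deposited by the authors, relative to transcript length and library, served as an alternative. The 16 FPKM columns were not used. Genes at 0 counts in 1 or more tumors (29568 of 45777) were left out, as in the study's methods. Counts were scaled by TMM and tested by edgeR 4.0.16 (R 4.3.3) with a mean per group, with SE taken from the log2 fold change and F. Alternatives were edgeR's exact test on counts with 1 added, DESeq2 1.42.0, limma 3.58.1 on log2(TPM + 1), other filters and scalings, and each tumor left out. The exact test here left out the log2 step that the study's methods describe. The code was tested on simulated data. Tumors were grouped by the labels, which give no batch and do not say that the tumors of a group came from separate mice, so that p-values measure the spread between these libraries, which may be technical. The lowest ratio computed for the variance between libraries against sampling noise was 25.6. It is not a floor for single genes: Ctsl in lean tumors after ETS had an SD of 1.45 CPM at a mean of 187.

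The members and lists were chosen with earlier results of these data known. Tumor values are given for members called in the difference between hosts, members changed by at least 1 on the log2 scale in either host, and Ctsd, Lamp1, Hexa, Atp6v1h and Tfeb as textbook members. Genes named from other lists are among the 3 of largest change among those called in that list, in a comparison given for them. Coordinates come from the GRCm38.p6 gene table. Of the members, 13 overlap another annotated gene, among them Ctsb (Fdft1) and Hexa (Tmem202), and pseudogenes are listed for Cd63 and Atp6v0c. Whether counting used the strand is not given in the sources used here, so such genes may share reads.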

Additional observations from a re-analysis of the deposited data

Results flagged for a closer look

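In groups of 4 tumors, a tumor was picked out when its gap to the nearest other tumor, divided by the range of the group, exceeded Dixon's critical value for 4 samples. Of 52 groups of the members given tumor by tumor, 3 met this: Ctsb in obese pre-therapy tumor 2 (0.888), Man2b1 in lean pre-therapy tumor 4 (0.832) and Psap in lean ETS tumor 2 (0.856). Chance alone picks out about 5% of groups. Obese pre-therapy tumor 2 was the high one for Ctsb, lean pre-therapy tumor 4 the high one for Man2b1 and lean ETS tumor 2 the low one for Psap.

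The effect of ETS differed between lean and obese tumors, by the interaction test of edgeR, for Ctsb (-1.61 on the log2 scale, lean minus obese), Ctsf (1.19), Ctsh (-2.66), Gla (-0.80), Man2b1 (-0.81), Psap (-1.47) and Npc2 (-0.60). Among all 39 members, 6 were called lower and 1 higher in this difference. The same test called 10.1% of all genes lower, 6.35% higher and 16.4% in either direction. Whether the members were called more often than other genes was not tested. For Ctsh and Psap the effects had opposite signs and were called in both hosts.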

How the results depend on the processing

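Counts are members of 39, higher and lower. Limma on log2(TPM + 1) gave 7 and 8 in lean tumors, 0 and 19 in the difference, 23 lower before therapy and 5 higher after ETS. Of all genes it called 44.9% lower in lean tumors, 13.8% lower in the difference, 17.1% lower before therapy and 4.09% higher after ETS. Under it 18 of the 39 lean changes lay above 0, against 34 by edgeR. The lean changes of Gla (-0.23) and Man2b1 (-0.0123) were among those that turned. In the difference, 2 were higher with DESeq2's size factors, filterByExpr or DESeq2. Of all genes these called 6.42%, 7.39% and 9.04% higher. After ETS, 1 was higher without a filter on low counts, 5 by the exact test, 5 higher and 1 lower by DESeq2, and 0 higher with only the groups compared. Of all genes these fits in turn called 0.887%, 6.02%, 7.16% and 0.308% higher, and DESeq2 called 6.05% lower. With the replicate number as a block, 2 were higher in the difference (8% of all genes) and 2 lower after ETS (4.94% of all genes). Same-numbered tumors were not treated as pairs in the main fit. Their deviations correlated at -0.112 to 0.452 over 24 pairs, and 5 of 16 libraries correlated best with their own number. These correlations cannot exclude a factor shared by same-numbered tumors. Leaving out obese ETS tumors 1 and 2 gave 18 higher in obese tumors, 3 higher in the difference and 10 lower after ETS. The shares of all genes were 13.8%, 5.47% and 7.3%. Leaving out 3 and 4 gave 0 higher and 17 lower in the difference, 22 lower before therapy and 0 higher after ETS. There the shares of all genes were 4.84%, 9.98%, 15.9% and 0.45%. The groups share the scaling and the estimate of spread, so counts before therapy can change too. Both ways of leaving out tumors were chosen after seeing the data.

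The exact test and a fit of only the groups compared give no value for the difference. With each tumor left out in turn, 11 to 20 were higher and 1 to 2 lower in lean tumors, 26 to 35 higher in obese tumors, 0 to 2 higher and 5 to 10 lower in the difference, 1 to 2 higher and 9 to 20 lower before therapy, and 0 to 4 higher and 0 to 1 lower after ETS. Of all genes these fits called 16.8% to 21.7% higher and 18.5% to 25% lower in lean tumors, and 16% to 22.1% higher in obese tumors. In the difference they called 3.66% to 8.45% higher and 8.42% to 10.6% lower. They called 9.34% to 15.5% lower before therapy and 0.679% to 5.13% higher after ETS. The fall of 2 members in lean tumors became 1 without lean pre-therapy tumor 1, 2 or 4 or lean ETS tumor 2, 3 or 4. The common coefficient of variation between tumors was 0.233.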
